A study of Rattus norvegicus with 18 samples.

Results

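The genes described are 64 amino acid and neurotransmitter transporters in rat brain cortex after middle cerebral artery occlusion (MCAO), an operation that blocks a main artery of the brain and makes its territory ischemic. They are all genes on the array whose symbol begins with Slc1a, Slc3a, Slc6a, Slc7a, Slc17a, Slc18a, Slc32a, Slc36a or Slc38a, 64 of the 35537 gene names or labels that the array carries. The rule goes by names and uses no measured value, although these families were picked for description with earlier results of these data known. It takes in 1 gene that is not a transporter, Slc7a6os, which lies opposite Slc7a6, and some SLC17 members that carry phosphate or sialic acid.

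Total RNA was measured on 18 one-colour arrays, 3 in each of 6 groups, and the comparisons ask what ischemia does to cortical gene expression and whether erythropoietin (EPO), a blood-forming hormone also tested as a neuroprotectant, alters it. All rats were male Crl:CD(SD)BR animals of 250 to 280 g. At 2 h and at 6 h after MCAO the groups were ischemic rats given EPO, ischemic rats given saline, and sham-operated rats with no treatment. The label of the sham rats names no saline, so ischemia and injection cannot be told apart in a comparison with sham, and the EPO dose is not given in the sources used here. The labels do not say whether the 3 arrays of a group came from separate animals, so p-values measure the spread between these samples, which may be technical.

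Values are log2 signals minus the 75th percentile of the same array, so a value of 0 means a probe as bright as that percentile. Each gene is given by its brightest probe, and levels of different genes are not compared, because probes differ in brightness. A gene was tested where its probe lay well above background on all 3 arrays of at least 1 group, which 53 of the 64 did, out of 24274 genes tested in all. Differences are log2 differences with the standard error (SE) of a limma model over all 18 arrays, and a gene was called at a Benjamini-Hochberg adjusted p under 0.05. Of the 64, 41 were above background on all 18 arrays and 7 on none. Those 7 were Slc6a3 (dopamine uptake), Slc6a18, Slc7a7, Slc7a13, Slc17a2, Slc36a2 and Slc36a3. The other untested genes were Slc6a4, the serotonin transporter (above background on 11 arrays), Slc7a11 (6), Slc17a3 (4) and Slc6a14 (1).

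The arrays differed in quality, unevenly over the groups. Between 61.47% and 80.62% of probes were well above background. Of the 18 arrays, 6 had a spike-in slope, the response of the added control RNAs, above 0.9, and the other 12 lay between 0.7885 and 0.866. The 6 steep arrays were EPO 2 h replicate 1, saline 2 h replicate 1, EPO 6 h replicate 3, saline 6 h replicates 1 and 3, and sham 6 h replicate 1. No sham 2 h array was steep, and saline 6 h had more steep arrays than sham 6 h. Every array of slide 5, the only slide scanned on the second day, was steep. In bulk tissue fewer cells of a type and less RNA per cell cannot be told apart.

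Transporters of the SLC1 family clear glutamate from the extracellular space by coupling its entry to sodium, and in the same family Slc1a4 and Slc1a5 exchange neutral amino acids instead. SLC6 carriers take up GABA, glycine, monoamines, taurine and other amino acids, SLC7 light chains work with an SLC3 heavy chain, and SLC38 carriers move glutamine between glia and neurons. The vesicular transporters, of the SLC17, SLC18 and SLC32 families, load synaptic vesicles with glutamate, monoamines, acetylcholine, GABA and glycine. When oxygen and glucose fail, sodium gradients collapse, and glutamate uptake is known to slow or reverse in ischemic brain.

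None of the 53 tested transporters passed the test at 2 h in saline-treated ischemic against sham cortex, where 1.26% of all tested genes were called, 0.906% higher and 0.354% lower. The smallest adjusted p among them was 0.291, and 4 of 53 had an unadjusted p under 0.05, against 3320 of all 28637 probes. The groups did not overlap for 6 of 53 (11.3%), against 15.7% of all tested genes. At 6 h, 9 of 53 (17%) were called in saline-treated ischemic cortex, 5 higher and 4 lower, against 11.2% of all tested genes, 4.82% higher and 6.41% lower. The groups did not overlap for 21 of the 53 (39.6%), against 32.2% of all tested genes. The median log2 difference at 6 h was -0.0471 over the transporters and -0.131 over all tested genes.

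The 5 that rose were Slc1a5, Slc1a4, Slc18a3, Slc6a20a and Slc7a5, and the 4 that fell were Slc6a13, Slc7a4, Slc17a5 and Slc6a15. The count of 9 became 5 without sham 6 h replicate 2, 5 without saline 6 h replicate 2, 4 without sham 6 h replicate 3 and 3 without saline 6 h replicate 3. Calls over all 28637 probes fell in the same fits, to 2057, 2055, 1904 and 1749 in that order, against 3164 with every array. With all 6 steep arrays left out, 1 saline array and 2 sham arrays remained at 6 h and 0 were called, with 202 of 28637 probes called in all. With slide as a fixed block 11 were called, with 3098 of 28637 probes. Slides 3 and 5 each hold arrays of both groups at 6 h, and saline minus sham was 0.80 within slide 3 and 1.00 within slide 5 for Slc1a5, and 0.68 and 0.59 for Slc1a4. Since the saline and sham arrays do not overlap for the 9, the sign within a slide could not differ from that of the fit. With quantile normalization in place of the 75th percentile the split was 5 higher and 1 lower, against 1462 and 1140 of 28637 probes. The median over all genes was then -0.0356.

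**Figure D1:**
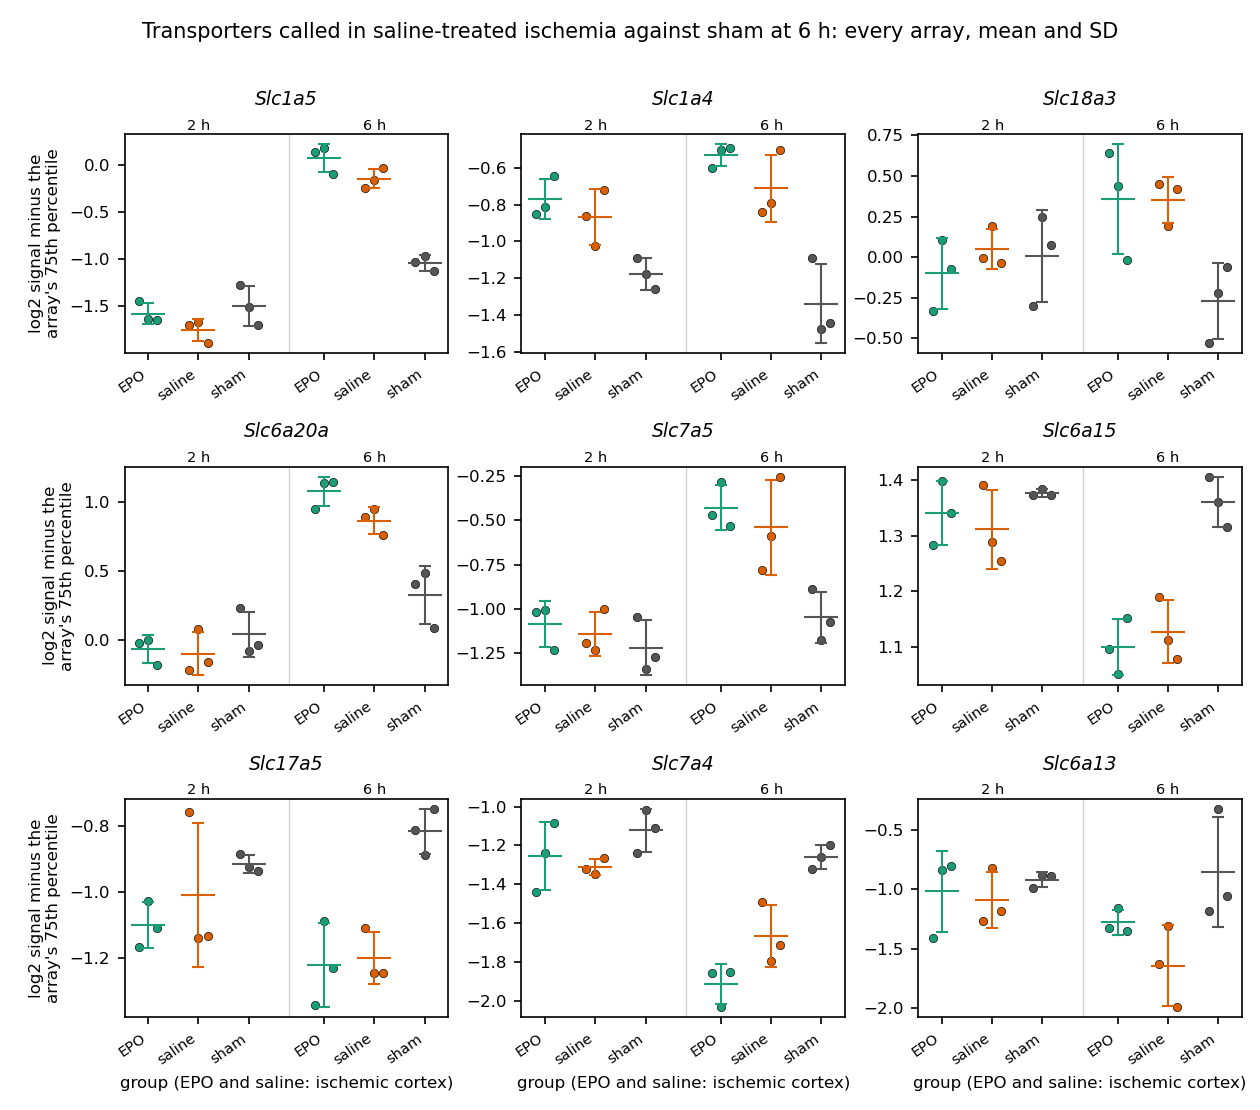
Log2 signal minus the array's 75th percentile (vertical axes, a separate scale for each gene) of the 9 transporters called at 6 h in saline-treated ischemia against sham. Points are arrays, horizontal marks means and bars SD over 3 arrays. The 3 saline 6 h points lie clear of the 3 sham 6 h points in every panel, and for Slc1a5 by 0.89 log2 units on average.

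The neutral amino acid exchangers Slc1a5 and Slc1a4 both rose at 6 h. Slc1a5 encodes ASCT2, which swaps glutamine and other neutral amino acids across the membrane. At 2 h Slc1a5 stood at -1.45, -1.64 and -1.65 with EPO, -1.70, -1.67 and -1.89 with saline and -1.28, -1.51 and -1.70 in sham cortex. At 6 h Slc1a5 stood at 0.13, 0.17 and -0.095 with EPO, -0.24, -0.16 and -0.037 with saline and -1.03, -0.97 and -1.13 in sham cortex. All 3 saline arrays lay above all 3 sham arrays at 6 h, and at 2 h the groups overlapped. The means at 6 h were -0.15 ± 0.10 in saline-treated ischemic cortex and -1.04 ± 0.081 in sham cortex (SD, n = 3 each), a log2 difference of 0.89 ± 0.11 or 1.86-fold (limma adjusted p = 0.000221).

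At 2 h the Slc1a5 difference ran the other way, -0.26 ± 0.11 (adjusted p = 0.38), and was not called. The change of the ischemia effect between 2 h and 6 h, tested as an interaction, was 1.15 ± 0.16 (adjusted p = 0.0032), and Slc1a5 was the only 1 of the 53 called there, against 1.52% of all tested genes, 0.857% upward and 0.667% downward. Between the sham groups Slc1a5 differed by 0.45 ± 0.11 (6 h minus 2 h, adjusted p = 0.108) and was not called, though it was with quantile normalization, and 0 of the 53 were called between the sham groups, against 0.531% of all tested genes, while 6 of 53 (11.3%) did not overlap, against 19.4%. The Slc1a5 call at 6 h held with each array left out in turn. Without the 6 steep arrays its difference was 0.88 (adjusted p = 0.0823).

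Slc1a4 encodes ASCT1, which carries serine, alanine and cysteine and is a main route for serine in brain. At 2 h Slc1a4 stood at -0.85, -0.81 and -0.64 with EPO, -0.86, -1.02 and -0.72 with saline and -1.09, -1.18 and -1.26 in sham cortex. At 6 h Slc1a4 stood at -0.60, -0.51 and -0.49 with EPO, -0.84, -0.79 and -0.50 with saline and -1.09, -1.48 and -1.45 in sham cortex. The saline and sham arrays did not overlap at either time. The log2 difference was 0.31 ± 0.12 at 2 h (adjusted p = 0.291) and 0.63 ± 0.12 at 6 h (adjusted p = 0.00421), 1.54-fold. Its interaction with time, 0.32 ± 0.17, was not called (adjusted p = 0.5). The 6 h call held with each array left out in turn.

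Slc7a5 encodes LAT1, the light chain that carries large neutral amino acids such as leucine and is abundant in brain capillaries. At 2 h Slc7a5 stood at -1.02, -1.01 and -1.23 with EPO, -1.20, -1.23 and -0.9999 with saline and -1.05, -1.34 and -1.27 in sham cortex. At 6 h Slc7a5 stood at -0.47, -0.28 and -0.53 with EPO, -0.78, -0.59 and -0.25 with saline and -0.89, -1.18 and -1.08 in sham cortex. The saline arrays all lay above the sham arrays at 6 h, with saline replicate 3 the highest of them. The log2 difference at 6 h was 0.51 ± 0.13, 1.42-fold (adjusted p = 0.0267). The call was lost without sham replicate 2 (0.44, adjusted p = 0.102), sham replicate 3 (0.49, adjusted p = 0.0811), saline replicate 2 (0.53, adjusted p = 0.0594) or saline replicate 3 (0.36, adjusted p = 0.118).

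Slc3a2 encodes the heavy chain (CD98) that brings LAT1 to the membrane. At 2 h Slc3a2 stood at 3.31, 3.27 and 3.19 with EPO, 3.28, 3.11 and 3.18 with saline and 3.26, 3.05 and 3.18 in sham cortex. At 6 h Slc3a2 stood at 3.45, 3.64 and 3.60 with EPO, 3.59, 3.48 and 3.62 with saline and 3.49, 3.37 and 3.34 in sham cortex. The saline and sham arrays overlapped at both times. Its log2 difference at 6 h was 0.16 ± 0.075 (adjusted p = 0.21).

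The promoters of Slc1a4 and Slc7a5 are shown as 1 window with and 1 without a match to TGATGNAA. These letters are the core of the composite C/EBP-ATF elements through which Atf4 is known to act. Each runs from 250 bases before to 50 after the annotated start in RefSeq, build GRCr8, and is written 5′ to 3′ on the gene's strand. Capitals mark a match to TGATGNAA on either strand. Slc1a4 lies at chr14:98761513-98761812 and Slc7a5 at chr19:66872363-66872662, both on the minus strand.
Slc1a4: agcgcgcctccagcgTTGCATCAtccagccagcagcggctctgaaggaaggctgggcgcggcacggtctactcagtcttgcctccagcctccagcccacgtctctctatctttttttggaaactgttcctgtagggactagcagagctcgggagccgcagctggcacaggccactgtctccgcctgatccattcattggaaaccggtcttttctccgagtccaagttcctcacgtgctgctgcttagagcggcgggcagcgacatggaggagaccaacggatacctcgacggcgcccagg
Slc7a5: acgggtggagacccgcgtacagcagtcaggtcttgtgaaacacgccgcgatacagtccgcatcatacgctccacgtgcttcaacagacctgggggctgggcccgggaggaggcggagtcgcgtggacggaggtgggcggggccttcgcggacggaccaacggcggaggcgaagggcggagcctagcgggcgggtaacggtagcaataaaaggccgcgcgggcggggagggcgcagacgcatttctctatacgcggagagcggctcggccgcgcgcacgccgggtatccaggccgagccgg
The Slc1a4 window holds 1 match, TTGCATCA, on the opposite strand, its first base at position -235 from the start. The Slc7a5 window holds no match, nor do those of Slc6a20a and Slc18a3, which also rose, and Slc1a5 is not among the promoters matched. Of 48 transporter promoters in the table, 3 (6.25%) held TGATGNAA, namely Slc1a4, Slc38a1 and Slc7a1, against 3.98% of all 33469 promoters of the same length. TGACNNNGC, an antioxidant response core, was in 10 of 48 (20.83%) against 12.06%, and TGACGTCA, the cyclic AMP response element, in 2 of 48 (4.17%) against 1.83%. Both strands were searched for each. Slc7a1 alone held 2 of the motifs, with TGATGNAA at -30 and TGACNNNGC at -107, which do not overlap. A match describes letters only, and the part of Atf4 in the transporter results was not tested.

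In the Atf4 and amino acid response list, 10 of 22 tested genes rose at 6 h in saline-treated ischemic cortex and 0 fell. Over all tested genes 4.82% rose and 6.41% fell there. The median log2 difference of the list was 0.279. The transcription factor Atf3 rose by 5.45 ± 0.37 (adjusted p = 2.2e-06), Trib3, a pseudokinase that curbs this response, by 3.30 ± 0.23 (adjusted p = 2.2e-06), and Chac1, which breaks down glutathione, by 1.41 ± 0.14 (adjusted p = 3.57e-05). Ddit3, a stress transcription factor, rose by 0.84 ± 0.081 (adjusted p = 3.09e-05) and Psph, the last enzyme of serine synthesis, by 0.40 ± 0.096 (adjusted p = 0.0171). Asns, asparagine synthetase, differed by -0.068 ± 0.062 and Psat1, another serine synthesis enzyme, by 0.079 ± 0.082, neither called. At 2 h 3 of the 22 rose and 0 fell (median 0.0737), against 0.906% and 0.354% of all tested genes.

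Among the cationic carriers, Slc7a4 fell at 6 h and Slc7a1 was not called. Slc7a4 belongs to the cationic amino acid family but has no settled substrate. At 2 h Slc7a4 stood at -1.44, -1.24 and -1.08 with EPO, -1.32, -1.35 and -1.27 with saline and -1.24, -1.02 and -1.11 in sham cortex. At 6 h Slc7a4 stood at -1.86, -2.03 and -1.85 with EPO, -1.49, -1.80 and -1.71 with saline and -1.32, -1.26 and -1.20 in sham cortex. The saline arrays all lay below the sham arrays at both times. The log2 difference was -0.41 ± 0.099 at 6 h (adjusted p = 0.0184) and -0.19 ± 0.099 at 2 h (adjusted p = 0.502). The 6 h call was lost without any 1 of sham replicates 2 and 3 or saline replicates 2 and 3, where the difference was -0.41, -0.37, -0.34 and -0.38 in that order (adjusted p = 0.0534 to 0.078).

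Slc7a1 encodes CAT1, the widespread arginine and lysine carrier. At 2 h Slc7a1 stood at -0.49, -0.39 and -0.44 with EPO, -0.57, -0.55 and -0.53 with saline and 0.035, -0.59 and -0.72 in sham cortex. At 6 h Slc7a1 stood at -0.12, 0.0015 and -0.13 with EPO, -0.38, -0.19 and -0.14 with saline and -0.27, -0.66 and -0.67 in sham cortex. Sham replicate 1 was the highest sham array at both times, and the saline and sham arrays overlapped at both times. Its log2 difference at 6 h was 0.30 ± 0.16 (adjusted p = 0.286), and a second, dimmer Slc7a1 probe differed by 0.0089 (adjusted p = 0.982).

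Slc7a11 encodes xCT, which imports cystine in exchange for glutamate and feeds glutathione synthesis. At 2 h Slc7a11 stood at -6.84, -4.51 and -4.39 with EPO, -6.07, -4.86 and -4.68 with saline and -4.79, -5.37 and -5.26 in sham cortex. At 6 h Slc7a11 stood at -3.82, -4.46 and -5.27 with EPO, -4.80, -4.51 and -4.18 with saline and -7.13, -4.40 and -4.99 in sham cortex. It was above background on 6 of 18 arrays, so these are mostly bounds and it was not tested. In the glutathione and Nrf2 list, 3 of 10 tested genes rose at 6 h with saline and 0 fell (median 0.134). Over all tested genes the shares were 4.82% and 6.41%. Hmox1, heme oxygenase, rose by 2.95 ± 0.17 (adjusted p = 5.2e-07) and Srxn1, sulfiredoxin, by 1.27 ± 0.13 (adjusted p = 5.53e-05).

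The remaining SLC3 and SLC7 genes were not called at 6 h with saline. Slc7a8 (LAT2) differed by 0.19 ± 0.13, Slc7a10, the glial carrier of D-serine and glycine, by 0.018 ± 0.11, and Slc3a1 by -0.29 ± 0.11 with adjusted p = 0.111. Across the 12 tested of 15 SLC3 and SLC7 genes the median log2 difference was 0.0275 at 6 h and -0.0428 at 2 h.

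No SLC38 or SLC36 carrier was called with saline at either time. The median over the 9 tested SLC38 genes at 6 h was -0.217, the lowest single difference being that of Slc38a6 at -0.80 ± 0.51. Slc38a1 (SNAT1) supplies glutamine to neurons. At 2 h Slc38a1 stood at -0.96, -0.81 and -0.74 with EPO, -0.86, -0.72 and -0.74 with saline and -0.80, -0.79 and -0.87 in sham cortex. At 6 h Slc38a1 stood at -0.67, -0.84 and -1.20 with EPO, -1.18, -0.92 and -0.98 with saline and -0.84, -0.83 and -0.81 in sham cortex. The 3 saline arrays lay below the 3 sham arrays at 6 h, and the log2 difference was -0.20 ± 0.11 (adjusted p = 0.311).

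Slc38a2 (SNAT2) is known in cultured cells to be induced when amino acids run short. At 2 h Slc38a2 stood at 2.84, 2.72 and 2.66 with EPO, 2.77, 2.67 and 2.66 with saline and 2.67, 2.69 and 2.75 in sham cortex. At 6 h Slc38a2 stood at 2.48, 2.62 and 2.56 with EPO, 2.63, 2.52 and 2.53 with saline and 2.78, 2.56 and 2.63 in sham cortex. The groups overlapped at both times, and the log2 difference at 6 h was -0.097 ± 0.069 with a 95% interval of -0.25 to 0.052.

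Slc38a3 (SNAT3) releases glutamine from astrocytes. At 2 h Slc38a3 stood at -0.38, -0.31 and -0.30 with EPO, -0.18, -0.41 and -0.36 with saline and 0.028, -0.31 and -0.33 in sham cortex. At 6 h Slc38a3 stood at -0.55, -0.50 and -0.47 with EPO, -0.59, -0.52 and -0.40 with saline and -0.11, -0.31 and -0.31 in sham cortex. The saline arrays lay below the sham arrays at 6 h, with a log2 difference of -0.26 ± 0.097 (adjusted p = 0.108). Slc38a5 differed by -0.79 ± 0.29 (adjusted p = 0.106) and Slc38a7, a lysosomal glutamine exporter, by -0.38 ± 0.13 (adjusted p = 0.0826).

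The proton-coupled carrier Slc36a1 (PAT1) exports small amino acids from lysosomes. At 2 h Slc36a1 stood at -4.89, -4.36 and -3.74 with EPO, -4.84, -3.78 and -4.87 with saline and -4.18, -3.99 and -4.30 in sham cortex. At 6 h Slc36a1 stood at -3.57, -4.27 and -4.84 with EPO, -4.55, -3.94 and -4.71 with saline and -4.73, -3.96 and -3.97 in sham cortex. It was above background on 15 of 18 arrays, the groups overlapped at both times, and the 6 h difference of -0.18 ± 0.39 was within that spread (adjusted p = 0.798). Slc36a4 differed by 0.11 ± 0.19.

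In the other SLC6 genes, Slc6a20a rose and Slc6a15 fell at 6 h. Slc6a20a encodes SIT1, a proline and imino acid carrier. At 2 h Slc6a20a stood at -0.017, 0.0016 and -0.18 with EPO, -0.21, 0.080 and -0.15 with saline and 0.23, -0.074 and -0.031 in sham cortex. At 6 h Slc6a20a stood at 0.95, 1.14 and 1.15 with EPO, 0.89, 0.95 and 0.76 with saline and 0.41, 0.49 and 0.092 in sham cortex. Every saline array was above every sham array at 6 h, and the groups overlapped at 2 h. The log2 difference at 6 h was 0.54 ± 0.12, 1.45-fold (adjusted p = 0.0107), and it held with each array left out in turn. Its interaction with time was 0.68 ± 0.17 (adjusted p = 0.0698).

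Slc6a15 encodes B0AT2, a neuronal carrier of proline and branched-chain amino acids. At 2 h Slc6a15 stood at 1.28, 1.40 and 1.34 with EPO, 1.39, 1.29 and 1.25 with saline and 1.37, 1.38 and 1.37 in sham cortex. At 6 h Slc6a15 stood at 1.096, 1.05 and 1.15 with EPO, 1.19, 1.11 and 1.08 with saline and 1.41, 1.36 and 1.31 in sham cortex. The saline arrays lay below the sham arrays at 6 h, and the spread within each group was small. The log2 difference at 6 h was -0.23 ± 0.054, 1.18-fold (adjusted p = 0.0137). It was not called without saline replicate 3 (-0.21, adjusted p = 0.0647) or sham replicate 1 (-0.21, adjusted p = 0.0549). The taurine carrier Slc6a6 differed by -0.25 ± 0.11, the creatine carrier Slc6a8 by -0.033 ± 0.099 and the proline carrier Slc6a7 by 0.12 ± 0.087, none of them called.

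None of the 5 plasma membrane glutamate transporters was called with saline at 2 h or at 6 h. Slc1a3 (GLAST) and Slc1a2 (GLT-1) are the astrocytic carriers that take up most synaptic glutamate. At 2 h Slc1a3 stood at 5.67, 5.50 and 5.38 with EPO, 5.71, 5.58 and 5.38 with saline and 5.70, 5.64 and 5.54 in sham cortex. At 6 h Slc1a3 stood at 5.33, 5.49 and 5.65 with EPO, 5.56, 5.58 and 5.59 with saline and 5.73, 5.51 and 5.43 in sham cortex. The groups overlapped at both times, and the 6 h difference was 0.019 ± 0.11 with a 95% interval of -0.21 to 0.25.

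At 2 h Slc1a2 stood at 1.97, 1.94 and 2.02 with EPO, 2.05, 2.06 and 1.90 with saline and 2.12, 1.97 and 2.05 in sham cortex. At 6 h Slc1a2 stood at 1.95, 2.14 and 2.28 with EPO, 2.23, 2.14 and 2.29 with saline and 1.98, 2.05 and 1.89 in sham cortex. Every saline array was above every sham array at 6 h. The log2 difference was 0.25 ± 0.083 (adjusted p = 0.073) on the brightest probe and 0.31 ± 0.092 (adjusted p = 0.0462) on a second Slc1a2 probe, so the 2 probes had 1 direction and fell on either side of the threshold.

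Slc1a1 (EAAC1) is the neuronal carrier. At 2 h Slc1a1 stood at 0.20, 0.38 and 0.22 with EPO, 0.22, 0.14 and 0.27 with saline and 0.32, 0.24 and 0.33 in sham cortex. At 6 h Slc1a1 stood at 0.086, 0.36 and 0.18 with EPO, 0.28, 0.27 and 0.28 with saline and 0.25, 0.29 and 0.38 in sham cortex. The groups overlapped and the 6 h difference was -0.030 ± 0.074 (95% interval -0.19 to 0.13). Slc1a6 (EAAT4), best known from cerebellar Purkinje cells, differed by -0.26 ± 0.092 (adjusted p = 0.0949). Slc1a7, above background on 15 of 18 arrays, differed by -0.41 ± 0.43. In the list of glutamate and GABA metabolism, 0 of 13 tested genes were called at 2 h or at 6 h with saline (medians -0.0448 and -0.0395). Of all tested genes 1.26% were called at 2 h and 11.2% at 6 h.

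**Figure D2:**
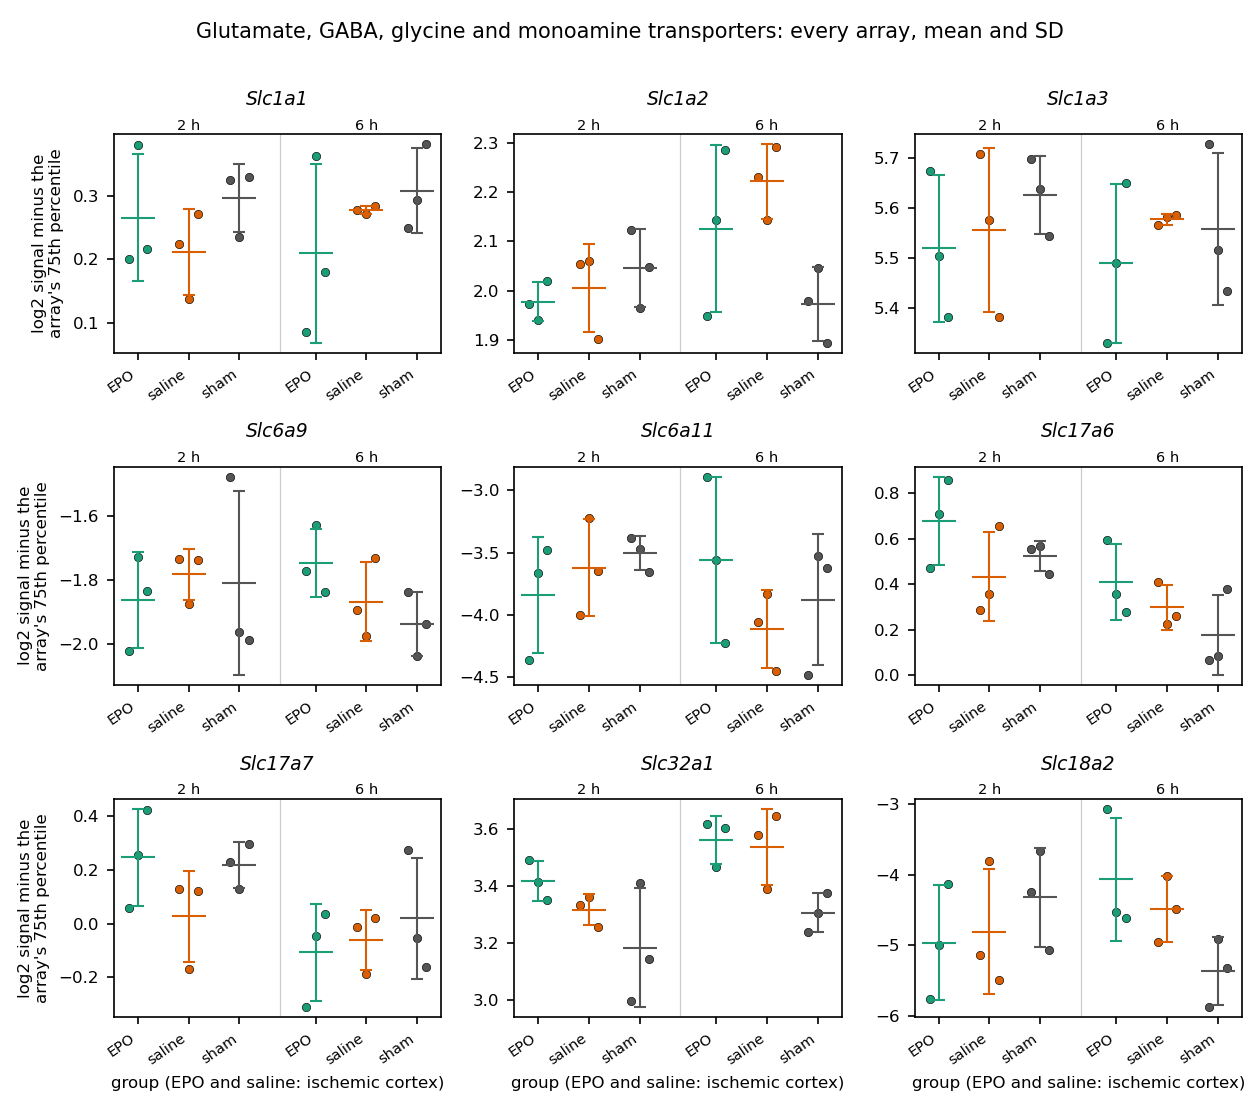
Log2 signal minus the array's 75th percentile (vertical axes, a separate scale for each gene) of 9 glutamate, GABA, glycine and monoamine transporters named whatever their values. Points are arrays, horizontal marks means and bars SD over 3 arrays. None was called in saline-treated ischemia against sham, and the 6 h saline and sham points stand apart for Slc1a2 and Slc32a1.

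Of the carriers that take up GABA, glycine and monoamines, 7 of 9 were tested and 1, Slc6a13, fell at 6 h. Slc6a13 (GAT2) takes up GABA and taurine and is known in brain from the leptomeninges. At 2 h Slc6a13 stood at -1.41, -0.84 and -0.81 with EPO, -1.27, -0.82 and -1.18 with saline and -0.99, -0.88 and -0.89 in sham cortex. At 6 h Slc6a13 stood at -1.33, -1.16 and -1.35 with EPO, -1.63, -1.31 and -1.99 with saline and -1.18, -0.32 and -1.06 in sham cortex. The saline arrays lay below the sham arrays at 6 h, with saline replicate 3 the lowest and sham replicate 2 the highest. The steep arrays, saline replicates 1 and 3 and sham replicate 1, were the lowest of their groups at 6 h. Over all 18 arrays the Slc6a13 mean on the steep arrays minus that on the others was -0.50. The log2 difference was -0.79 ± 0.23, 1.73-fold (adjusted p = 0.0431). It was -0.52 without sham replicate 2 (adjusted p = 0.167) and -0.61 without saline replicate 3 (adjusted p = 0.177), and not called either without saline replicate 1 (-0.80, adjusted p = 0.0982) or sham replicate 3 (-0.89, adjusted p = 0.062).

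Of 8 tested meningeal markers 1, Col1a1, fell at 6 h (-0.36 ± 0.11, adjusted p = 0.0477) and 0 rose, against 6.41% and 4.82% of all tested genes. The median of the 8 markers was -0.242. Their mean level ranged from 0.79 to 0.98 over the saline arrays and from 0.92 to 1.27 over the sham arrays, the highest being sham replicate 2. All 8 were above background, and their part in the Slc6a13 and Slc6a20a results was not tested.

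Slc6a11 (GAT3) is the astrocytic GABA carrier. At 2 h Slc6a11 stood at -4.36, -3.66 and -3.48 with EPO, -4.00, -3.22 and -3.64 with saline and -3.38, -3.47 and -3.65 in sham cortex. At 6 h Slc6a11 stood at -2.89, -3.56 and -4.23 with EPO, -4.06, -3.83 and -4.45 with saline and -4.48, -3.52 and -3.63 in sham cortex. Its groups overlapped and its lowest value was on a steep array, sham 6 h replicate 1.

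Slc6a9 (GlyT1) clears glycine near excitatory synapses. At 2 h Slc6a9 stood at -2.02, -1.73 and -1.84 with EPO, -1.73, -1.88 and -1.74 with saline and -1.48, -1.96 and -1.99 in sham cortex. At 6 h Slc6a9 stood at -1.77, -1.63 and -1.84 with EPO, -1.90, -1.97 and -1.73 with saline and -1.84, -2.04 and -1.94 in sham cortex. The groups overlapped and the 6 h difference was 0.071 ± 0.13 (95% interval -0.20 to 0.34). The noradrenaline carrier Slc6a2 differed by -0.23 ± 0.26, the neuronal glycine carrier Slc6a5 by -0.047 ± 0.24 and the betaine and GABA carrier Slc6a12 by 0.12 ± 0.28, none called.

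All 7 vesicular transporters were tested and 1, Slc18a3, rose at 6 h. Slc18a3 loads acetylcholine into vesicles. At 2 h Slc18a3 stood at -0.33, 0.10 and -0.072 with EPO, -0.0028, 0.19 and -0.036 with saline and -0.30, 0.25 and 0.074 in sham cortex. At 6 h Slc18a3 stood at 0.64, 0.44 and -0.017 with EPO, 0.45, 0.19 and 0.42 with saline and -0.53, -0.22 and -0.063 in sham cortex. The saline arrays lay above the sham arrays at 6 h and overlapped them at 2 h. The log2 difference at 6 h was 0.62 ± 0.19, 1.54-fold (adjusted p = 0.0464). Leaving out any 1 of the 6 arrays ended the call (differences of 0.50, without sham replicate 1, to 0.73, without sham replicate 3, with adjusted p = 0.164 and 0.0549).

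Some striatal neuron markers were also called at 6 h. Of 9 tested, 2 rose with saline and 0 fell (median 0.623), against 4.82% and 6.41% of all tested genes. The 2 were Adora2a (0.84 ± 0.24, adjusted p = 0.0372) and Ppp1r1b (0.55 ± 0.12, adjusted p = 0.0118). The mean level of the 9 at 6 h ranged from 0.99 to 1.21 over the saline arrays and from 0.33 to 0.77 over the sham arrays. All 9 were above background. At 2 h their median difference from sham was 0.491 with saline and 0.36 with EPO, and 0 were called. Slc18a3 at 2 h averaged 0.051 with saline, -0.099 with EPO and 0.0067 in sham cortex. Chat, the enzyme that makes acetylcholine, differed by -0.024 ± 0.42 at 6 h (adjusted p = 0.977). The part of striatal tissue in the Slc18a3 result was not tested.

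The vesicular glutamate and GABA carriers were not called. Slc17a7 (VGLUT1) marks most cortical glutamate neurons. At 2 h Slc17a7 stood at 0.059, 0.26 and 0.42 with EPO, 0.13, -0.17 and 0.12 with saline and 0.23, 0.13 and 0.30 in sham cortex. At 6 h Slc17a7 stood at -0.31, -0.046 and 0.037 with EPO, -0.013, -0.19 and 0.020 with saline and 0.27, -0.054 and -0.16 in sham cortex. Its saline arrays lay below the sham arrays at 2 h, with a log2 difference of -0.19 ± 0.13 (adjusted p = 0.611), and overlapped them at 6 h.

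Slc17a6 (VGLUT2) is most abundant in thalamus and brainstem neurons. At 2 h Slc17a6 stood at 0.47, 0.71 and 0.86 with EPO, 0.29, 0.36 and 0.66 with saline and 0.56, 0.57 and 0.45 in sham cortex. At 6 h Slc17a6 stood at 0.60, 0.36 and 0.28 with EPO, 0.41, 0.22 and 0.26 with saline and 0.065, 0.084 and 0.38 in sham cortex. Its groups overlapped at both times, and the 6 h difference was 0.12 ± 0.13 (adjusted p = 0.628). Slc32a1 (VGAT) loads GABA and glycine. At 2 h Slc32a1 stood at 3.49, 3.42 and 3.35 with EPO, 3.33, 3.36 and 3.26 with saline and 3.00, 3.41 and 3.15 in sham cortex. At 6 h Slc32a1 stood at 3.62, 3.47 and 3.60 with EPO, 3.58, 3.39 and 3.65 with saline and 3.24, 3.31 and 3.37 in sham cortex. Every saline array was above every sham array at 6 h, with a log2 difference of 0.23 ± 0.097 (adjusted p = 0.156).

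Slc18a2 (VMAT2) loads monoamines. At 2 h Slc18a2 stood at -5.77, -4.99 and -4.13 with EPO, -5.13, -3.80 and -5.49 with saline and -4.24, -3.66 and -5.07 in sham cortex. At 6 h Slc18a2 stood at -3.06, -4.52 and -4.61 with EPO, -4.96, -4.02 and -4.48 with saline and -5.88, -4.91 and -5.32 in sham cortex. It was above background on 10 of 18 arrays, and its 6 h difference of 0.88 ± 0.57 has a 95% interval of -0.34 to 2.10. Among 9 tested genes of monoamine and acetylcholine metabolism 0 were called at 6 h with saline (median -0.135), against 11.2% of all tested genes.

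Slc17a5 encodes sialin, the lysosomal exporter of sialic acid, and it fell at 6 h. At 2 h Slc17a5 stood at -1.17, -1.03 and -1.11 with EPO, -0.76, -1.14 and -1.13 with saline and -0.88, -0.93 and -0.94 in sham cortex. At 6 h Slc17a5 stood at -1.34, -1.09 and -1.23 with EPO, -1.11, -1.25 and -1.24 with saline and -0.81, -0.89 and -0.75 in sham cortex. The saline arrays lay below the sham arrays at 6 h. The log2 difference was -0.38 ± 0.097, 1.3-fold (adjusted p = 0.0215). It lost its call without sham replicate 1 (-0.38), sham replicate 3 (-0.35), saline replicate 2 (-0.36) or saline replicate 3 (-0.36), with adjusted p of 0.06, 0.0815, 0.0727 and 0.0806 in that order.

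Some markers of other cell types were also called at 6 h with saline, where 11.2% of all tested genes were called. Of 8 endothelial markers 5 fell and 0 rose (median -0.715), their mean level ranging from -1.51 to -1.36 over the saline arrays and from -1.1 to -0.84 over the sham arrays. Slc7a5, abundant in capillaries, rose in the same arrays. Of 5 tested neutrophil markers 3 rose (median 1.39, means of -2.35 to -2.31 against -3.8 to -3.33), while Mmp8 and Fpr1 were not above background. Of 8 microglial markers 2 rose and 2 fell, of 8 astrocyte markers 1 fell, of 7 oligodendrocyte markers 1 rose, and of 4 cortical excitatory neuron markers 1 fell. Their part in the transporter results was not tested.

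EPO-treated ischemic cortex is next set against the same sham arrays, so these comparisons share their sham values with those above. At 2 h 0 of 53 transporters were called, against 1.33% of all tested genes, and the groups did not overlap for 7 (13.2%), against 20.4%. At 6 h 13 of 53 (24.5%) were called, 6 higher and 7 lower, against 16.4% of all tested genes, 6.48% higher and 9.89% lower. The median log2 difference at 6 h was 0.0472 over the transporters and 0.00193 over all tested genes. The groups did not overlap for 21 of 53 (39.6%), against 30.9% of all tested genes.

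Of these 13, 8 were also called with saline and had the same sign, 5 were called with EPO alone and 1 (Slc6a13) with saline alone. Slc1a5 rose by 1.11 ± 0.11 (adjusted p = 2.51e-05), Slc1a4 by 0.80 ± 0.12 (adjusted p = 0.000497) and Slc6a20a by 0.75 ± 0.12 (adjusted p = 0.000886). Slc7a5 rose by 0.62 ± 0.13 (adjusted p = 0.00646) and Slc18a3 by 0.63 ± 0.19 (adjusted p = 0.0349), a call lost for Slc18a3 without sham replicate 1 (0.50) or replicate 2 (0.65) or EPO replicate 1 (0.48) or replicate 2 (0.59). Slc7a4 fell, at -0.65 ± 0.099 (adjusted p = 0.000665), as did Slc17a5, at -0.40 ± 0.097 (adjusted p = 0.0117), and Slc6a15, at -0.26 ± 0.054 (adjusted p = 0.00494). Slc6a13 was at -0.42 ± 0.23 (adjusted p = 0.27).

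Among the 5 called with EPO and not with saline were Slc38a4, Slc38a7, Slc38a9 and Slc1a6. Slc38a4, a carrier of neutral and cationic amino acids known from liver, stood at 6 h at -4.10, -4.11 and -3.98 with EPO, -4.10, -4.08 and -4.23 with saline and -4.80, -4.42 and -4.76 in sham cortex. It was above background on 13 of 18 arrays, and its difference from sham was 0.60 ± 0.19 with EPO (adjusted p = 0.0483) and 0.52 ± 0.19 with saline (adjusted p = 0.104). The EPO call was lost without any 1 of EPO replicates 1, 2 and 3 or sham replicates 1 and 3 (differences of 0.53 to 0.62, adjusted p = 0.0986 to 0.151).

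Slc38a7 stood at -1.94, -2.15 and -2.20 with EPO, -1.85, -1.83 and -1.95 with saline and -1.73, -1.15 and -1.61 in sham cortex at 6 h. Slc38a9, a lysosomal arginine sensor, stood at -4.05, -4.36 and -4.03 with EPO, -3.79, -3.94 and -3.99 with saline and -3.59, -3.73 and -3.75 in sham cortex. In both genes every EPO and every saline array lay below every sham array at 6 h. Against sham, Slc38a7 was at -0.60 ± 0.13 with EPO (adjusted p = 0.00686) and -0.38 ± 0.13 with saline. Slc38a9 was at -0.46 ± 0.11 with EPO (adjusted p = 0.0116) and -0.22 ± 0.11 with saline, and without EPO replicate 2 its EPO difference was -0.35 (adjusted p = 0.0557).

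Slc1a6 stood at -1.60, -1.67 and -1.49 with EPO, -1.53, -1.36 and -1.41 with saline and -1.14, -1.13 and -1.27 in sham cortex at 6 h, every EPO array below every sham array. Its difference from sham was -0.41 ± 0.092 with EPO (adjusted p = 0.00822) and -0.26 ± 0.092 with saline (adjusted p = 0.0949). None of these differences between EPO and saline was itself called.

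**Figure D3:**
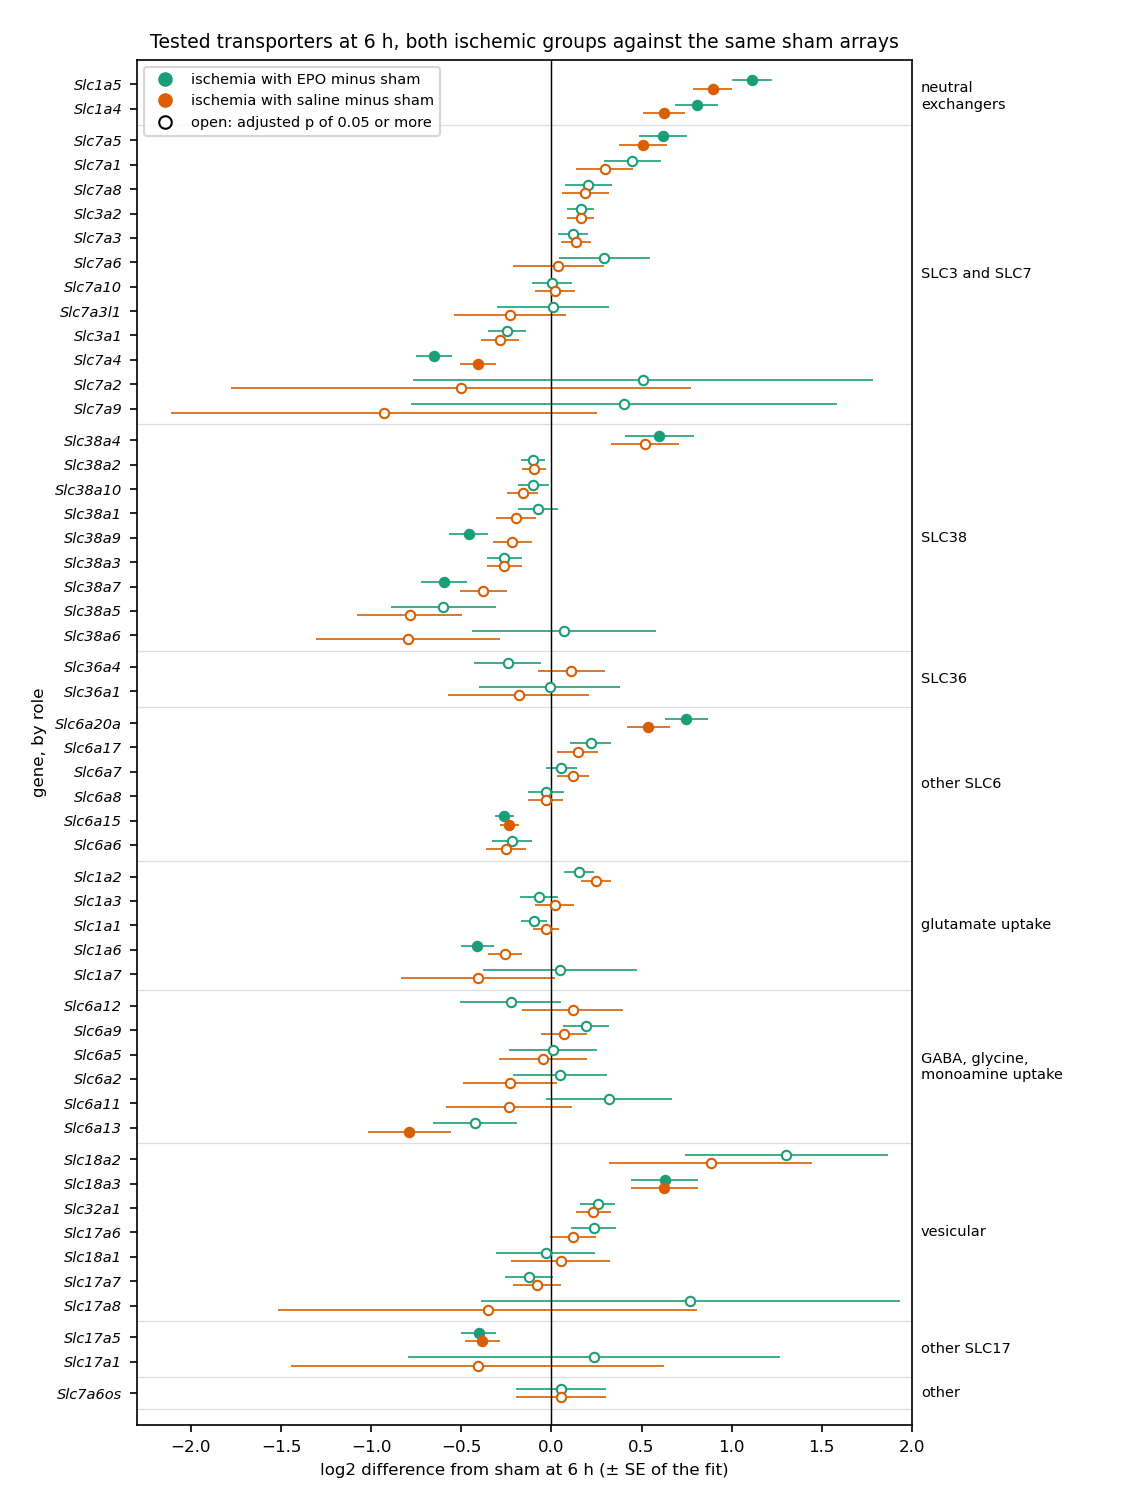
Log2 difference from sham at 6 h (horizontal axis, bars ± SE of the fit) for 52 tested transporters, in rows by role, with EPO (green) above saline (orange) in each row. Filled points were called, 12 with EPO and 9 with saline among those drawn, and both are set against the same 3 sham arrays. Slc1a5 and Slc1a4 lie farthest right among the filled points, and the widest bars belong to Slc7a2, Slc7a9, Slc17a1 and Slc17a8.

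EPO against saline in ischemic cortex called 0 of the 53 transporters at 2 h and 0 at 6 h with limma, and 0% of all tested genes at either time. At an unadjusted p under 0.05 there were 0 transporters at 2 h and 2 at 6 h, among 381 and 1184 of 28637 probes. The EPO and saline arrays did not overlap for 2 of 53 at 2 h (4.12% of all genes) and 4 at 6 h (8.68%). The 4 at 6 h were Slc6a20a and Slc7a1, with EPO above saline, and Slc7a4 and Slc38a9, with EPO below saline.

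For the called genes the log2 difference of EPO minus saline at 6 h was 0.22 ± 0.11 for Slc1a5 (95% interval -0.020 to 0.46), 0.18 ± 0.12 for Slc1a4 (-0.074 to 0.43) and 0.11 ± 0.13 for Slc7a5 (-0.18 to 0.40). It was 0.21 ± 0.12 for Slc6a20a (-0.044 to 0.47), 0.0027 ± 0.19 for Slc18a3 (-0.40 to 0.40) and 0.36 ± 0.23 for Slc6a13 (-0.13 to 0.86). Slc7a4 and Slc38a9 gave the 2 intervals that left out 0, -0.46 to -0.034 around -0.25 and -0.48 to -0.0059 around -0.24, and neither passed the adjustment (adjusted p = 0.778 for each). These intervals are not adjusted for the number of genes, and a missed threshold does not show that EPO and saline gave equal levels.

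With EPO, 7 of 9 striatal markers were higher than in sham cortex at 6 h (median 0.703), with mean levels of 1 to 1.51 over the EPO arrays against 0.33 to 0.77 over the sham arrays. Slc18a3 was highest in EPO replicate 1, where the striatal markers were highest too, and lowest in EPO replicate 3, where they were lowest. Of 8 endothelial markers 1 rose and 5 fell with EPO, and of 8 meningeal markers 1 rose, Mgp (0.52 ± 0.15, adjusted p = 0.0323). Of 5 tested neutrophil markers 3 rose with EPO (median 1.45, means of -2.79 to -1.98 over the EPO arrays against -3.8 to -3.33 over the sham arrays). Of 8 microglial markers 3 rose and 2 fell, of 8 astrocyte markers 1 rose and 2 fell, and of 7 oligodendrocyte markers 2 rose. Of 6 interneuron markers 1 fell, as did 1 of 4 cortical excitatory neuron markers. Over all tested genes 16.4% were called in this comparison. The part of these markers in the transporter results with EPO was not tested. In the Atf4 and amino acid response list 8 of 22 rose and 0 fell with EPO (median 0.232). In the glutathione and Nrf2 list 4 of 10 rose. In the list of glutamate and GABA metabolism 1 of 13 fell and 0 rose with EPO at 6 h (median -0.0923).

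Among the tested transporters, 4 dim genes differed most with array quality. Slc7a2, an arginine carrier, Slc7a9, a cystine carrier of kidney, Slc17a1, a phosphate carrier, and Slc17a8, the vesicular glutamate carrier VGLUT3, were above background on 12 or 13 of 18 arrays. All 4 passed the filter only through sham 2 h, the group with no steep array and the group of their highest means. On the 6 steep arrays their mean minus that of the 12 other arrays was -2.95 for Slc7a2, -2.81 for Slc7a9, -2.28 for Slc17a1 and -2.71 for Slc17a8. Slc17a8 stood at 6 h at -1.59, -3.24 and -5.14 with EPO, -5.24, -3.02 and -5.09 with saline and -6.24, -2.96 and -3.08 in sham cortex. The lowest arrays were the steep ones in all 3 groups. The SE of their differences between any 2 groups was 1.03 to 1.28, against a median of 0.133 over all probes. For Slc7a2 at 6 h with saline the 95% interval ran from -3.25 to 2.25. Other transporters were lower on the steep arrays by less, including Slc38a6 (-1.16), Slc1a7 (-0.79), Slc6a11 (-0.77), Slc18a2 (-0.70) and Slc36a1 (-0.68). Of the called genes Slc6a13 shifted most, by -0.50. The largest shift upward was 0.35, for Slc1a5. These means take no account of group.

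**Figure D4:**
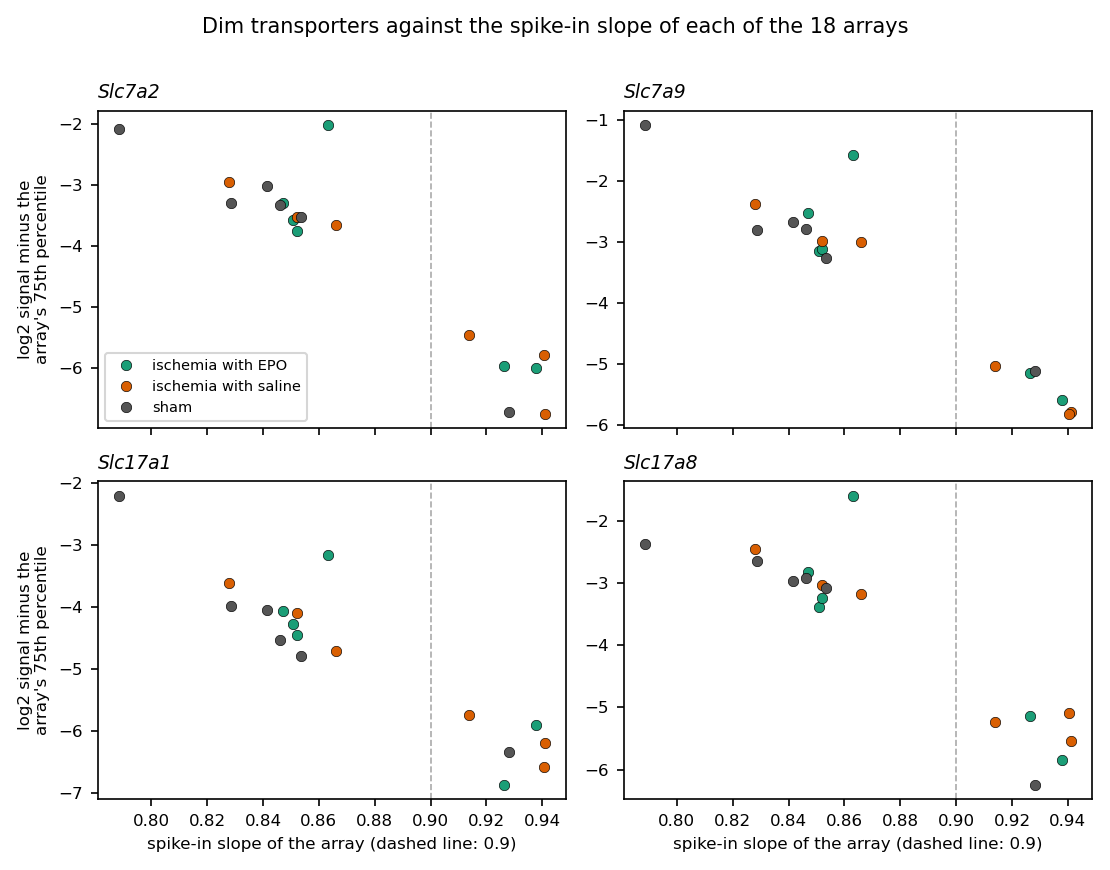
Log2 signal minus the array's 75th percentile (vertical axes) against the spike-in slope of the array (horizontal axis) for 4 dim transporters, with 18 arrays in each panel. The 6 arrays right of the dashed line at 0.9 lie below the other 12 in every panel, whatever their group.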

How the data were processed

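The rule for members goes by gene names, and the families and gene lists were chosen with earlier results of these data known. Total RNA (Trizol) was labelled with Cy3 and hybridised to one-colour arrays, per the labels' protocols, and per the submitters' processing notes read with Agilent Feature Extraction 9.1.1.1. The deposited scanner files give background-subtracted processed signals as intensity. The authors' deposited table holds the mean log2 processed signal per probe with no scaling between arrays, as set against the scanner files.

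Here each probe's log2 processed signal was averaged over its spots without outlier flags, and the array's 75th percentile over all non-control spots was subtracted. Probes were tested where well above background on all 3 arrays of at least 1 group, and 345 probes with a lost spot on some array were left out. One limma 3.58.1 model (R 4.3.3) of 6 group means over 18 arrays (12 residual degrees of freedom) gave two-sided moderated tests, adjusted by Benjamini-Hochberg over 28637 probes, with a threshold of 0.05. The code was tested on simulated data. The number of arrays, 3 per group, limits the precision. Values per array are given for genes called in saline-treated ischemia against sham, EPO against saline or the interaction, and for transporters named by role, and other genes are given where counts or neighbouring results call on them. Alternatives covered background correction, normalization, filters, slide, spike-in slope class, replicate block and each array left out. The arrays lay on 5 slides and were scanned on 2 days, and the second day holds slide 5 alone, so scan day had no fit of its own beside the slide block.

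Equal replicate numbers were checked as pairs by correlating deviations from group means. The deviations correlated positively in every pair only for EPO against saline at 2 h, at 0.887, 0.654 and 0.635. The labels state no pairing. Replicate 1 is the steep array in both of these groups, on slide 5 with EPO and on slide 1 with saline. The part of the spike-in slope in these correlations was not tested. 1 transporter is counted but not reported here. Promoters come from RefSeq, build GRCr8.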

Additional observations from a re-analysis of the deposited data

Results flagged for a closer look

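Slc1a5 was the 1 transporter whose ischemia effect differed between times by a test of the difference itself. Saline-treated ischemia minus sham was 0.89 ± 0.11 at 6 h and -0.26 ± 0.11 at 2 h, and the interaction was 1.15 (limma adjusted p = 0.0032), with all 3 saline arrays above all 3 sham arrays at 6 h. At 2 h and at 6 h the arrays come from different sham groups, whose Slc1a5 levels averaged -1.04 ± 0.081 at 6 h and -1.50 ± 0.21 at 2 h (SD, n = 3 each).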

How the results depend on the processing

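No called result changed direction under any alternative run, but much of this outcome was fixed in advance. The groups do not overlap for the 9 called with saline at 6 h, so leaving out arrays could not reverse them. Changes to the variance estimate or the adjustment leave the difference as it is. The alternatives also overlap with each other, as when the same sham array is left out in several. The count of 9 at 6 h with saline was 3 on the authors' unscaled values, 1 when only the arrays compared were fitted and 0 without the 6 steep arrays, where 1265, 1343 and 202 of 28637 probes were called in all, against 3164, and leaving out 1 array each gave 3 to 7. The count of 13 with EPO was 6, 4 and 6 under those settings, with 2255, 1168 and 2237 probes called in all, against 4615, and 10 to 12 with 1 array left out. With 1 array left out, 1749 to 2226 probes were called in all with saline at 6 h and 3145 to 4391 with EPO. The interaction count of 1, with 410 of 28637 probes called in all, was 2 under some settings. These were normexp background correction (391 probes in all), trended robust variance (560) and slide as a random block (756). The filter for all arrays above background gave 2 as well, with 519 of 23143 probes. Without the 6 steep arrays 1 saline array remained at 6 h, and no interaction count is given for that setting. Over 29 alternatives, that setting included, the Slc1a5 interaction ran from 1.04 to 1.27. It was called in 28, all but the fit without the steep arrays. The sham count of 0 was 1, Slc1a5, with quantile normalization, and the Slc1a5 difference between the sham groups ran from 0.35 to 0.56 over 23 alternatives. The replicate block gave 8 with saline and 12 with EPO at 6 h, with 2785 and 4272 of 28637 probes called in all. It gave 1 for the interaction, with 302 probes in all, and 0 for the others. These include EPO against saline at 2 h, where the deviations of equal replicate numbers correlated. Over 23 alternatives the saline call at 6 h stood in 22 for Slc1a5, 21 for Slc1a4 and 21 for Slc6a20a, and in 10 for Slc18a3. The 75th percentile taken over probes, an alternative chosen after seeing the data, gave 6 higher and 3 lower at 6 h with saline. Over all probes it gave 1578 higher and 1204 lower. Dim genes near background had wide errors.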
